A study of Mus musculus with 5 samples.

Results

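This section describes how gene expression in 2 libraries from diabetic mice differed from that in the 1 control library of the same study, as 3 of the 5 libraries of the series. RNA labelled as visceral adipose tissue came from male C57BL/6 mice in every group. The control was fed standard laboratory chow and given vehicle. The mice of diabetes 1 and diabetes 2 received streptozotocin at 70 mg/kg into the abdominal cavity at 2 days of age, were fed from 3 weeks of age for 8 weeks on food that supplied 60% of energy as fat, and were given the same vehicle. The diabetic state was thus made by a toxin and a diet together, and the control lacked both, so what each contributed cannot be told apart. The remaining libraries, curcumin-treated 1 and 2, had the same streptozotocin and diet, with curcumin at 50 mg/kg daily for 28 days from 11 weeks of age. They are given only beside some values. Genes were chosen as those for which both diabetic libraries lay on the same side of the control, with levels in CPM, which are counts scaled by the library total. The labels do not tie the 2 diabetic libraries to separate mice, so that p-values describe only how far these libraries spread, and some of that spread may be technical.

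Streptozotocin enters the insulin-producing beta cells of the pancreas through a glucose transporter and kills them, and given to newborn mice it leaves a lasting shortage of insulin on which a high-fat diet adds insulin resistance. Visceral fat is a site of lipid storage and hormone release. In obesity and diabetes it is known for larger adipocytes, for the entry of macrophages and other immune cells, and for altered matrix and mitochondrial gene expression. Each library holds the RNA of a whole piece of tissue, so that fewer cells of a type and less RNA per cell cannot be told apart.

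The libraries held 27026597 counts in control 1, 25451001 in diabetes 1 and 25378046 in diabetes 2. They differed from each other in tissue markers, and the label of adipose tissue matched the markers of diabetes 2 alone among the 3. Adipocyte genes (23 genes) took 0.0872% of the counts of control 1, 0.0251% of diabetes 1 and 5.89% of diabetes 2. Genes of the principal cells of the epididymis (34 genes), the sperm-storing duct beside the gonadal fat, took 9.70%, 9.38% and 0.00372%. Control 1 and diabetes 1 were thus rich in epididymal transcripts and poor in those of fat, and diabetes 2 was the reverse. The part of this makeup in the differences described here was not tested.

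Of 13038 genes above an expression floor (an average of at least 5 CPM between the control level and the mean diabetic level), both diabetic libraries lay above the control for 2780 (21.3% of these genes) and below it for 4431 (34.0%). The other 5827 genes had the diabetic libraries on opposite sides. The excess of lower genes depended on the scaling. With TMM, which scales by the bulk of the genes and adds 0.25 to the log2 ratio of diabetes 2 and 0.04 to that of diabetes 1, the counts were 3487 above and 3637 below. With DESeq2 size factors they were 3627 and 3511. The median log2 ratio to the control over all 13038 genes was −0.11 in diabetes 1 and −0.13 in diabetes 2 on the CPM scale, and −0.07 and 0.12 with TMM.

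A difference of at least 2-fold in both libraries was met by 128 genes on the higher side (0.982% of the 13038) and by 420 on the lower side (3.22%). With DESeq2 size factors the numbers were 178 higher and 324 lower. At 1.5-fold there were 465 (3.57%) and 1245 (9.55%). Fewer genes passed in diabetes 1 than in diabetes 2. Diabetes 1 was at least 2-fold above the control for 279 genes and at least 2-fold below for 1412, against 2655 and 3325 in diabetes 2. Among the 128 higher genes the median fold was 2.62 in diabetes 1 and 6.47 in diabetes 2, and among the 420 lower genes it was 2.59 and 6.86, where a count under 3 was set to 3. The higher genes had low control levels, with a median of 2.81 CPM, and 10 of them had fewer than 3 counts there. Only 36 of the 128 had at least 5 CPM in the control. The expression floor averages the control and the mean diabetic level, so a gene could enter through a diabetic library alone. The low control levels follow in part from that choice. Of the lower genes 148 kept at least 5 CPM in both diabetic libraries, and 74 had fewer than 3 counts in diabetes 2. Just inside the 2-fold limit lay Hspa8 and Lyz1 on the higher side and Mcrs1 and Haspin on the lower side. Just outside it were Stn1, at 6.73 CPM in control 1 against 13.4 and 15.7 CPM, and Tle6, at 11.5 against 5.78 and 4.14 CPM.

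**Figure D1:**
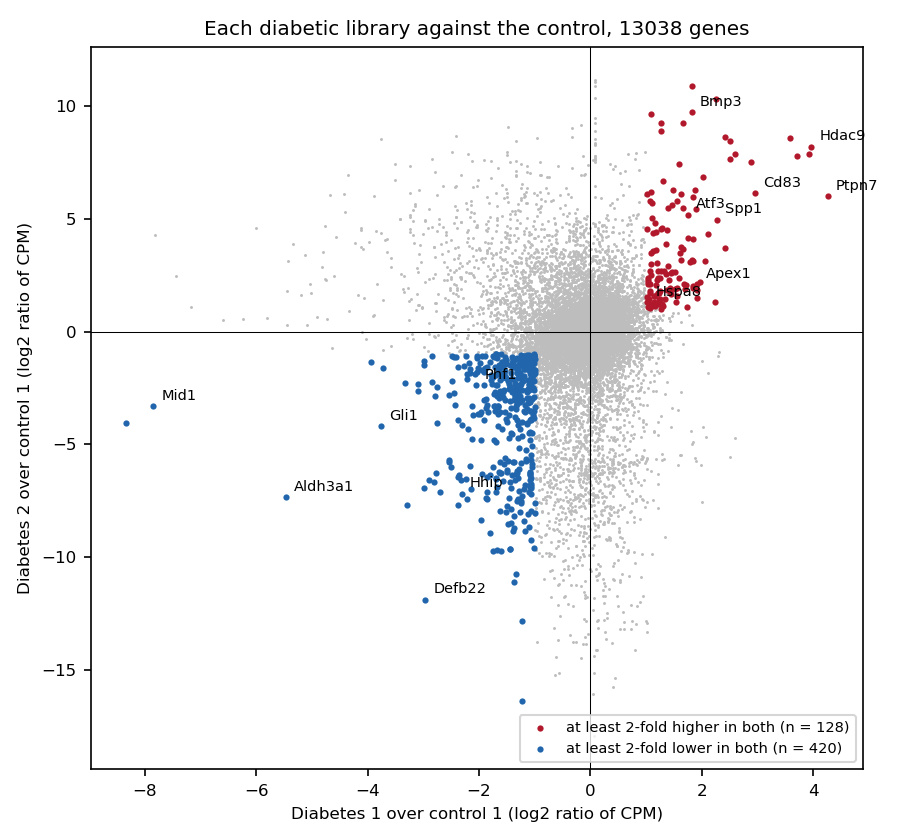
Log2 ratio of CPM to control 1 in diabetes 1 (horizontal) and diabetes 2 (vertical) for the 13038 genes above the expression floor, with counts under 3 set to 3. Red points are the 128 genes at least 2-fold higher in both libraries and blue points the 420 at least 2-fold lower in both. The cloud is wider along the vertical axis, since diabetes 2 differed more from the control.

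With 2 libraries against 1 no replicate spread exists for the control, and an exact permutation test of a single gene cannot go below p = 0.333 (one-sided). Across all genes, edgeR's quasi-likelihood test was fitted on all 5 libraries and 29855 genes, with the spread taken from the diabetic and the curcumin-treated libraries. It called 0 genes at an adjusted p under 0.05 (0% in either direction), with 120 at an unadjusted p under 0.05. Limma-voom called 0 as well (285 at an unadjusted p under 0.05), and DESeq2 called 56, of which 49 were higher (964 at an unadjusted p under 0.05). The values that follow are therefore descriptions of 3 libraries. The smallest adjusted p in edgeR was 1.00, and "higher" and "lower" state on which side of the control a library lay.

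Ptpn7, Cd200r1 and Slamf7, which are known from immune cells, were among the genes with the widest distance from the control on the higher side. Ptpn7 (ENSMUSG00000031506), a tyrosine phosphatase of blood cells, was at 0.259 CPM in the control, 4.95 CPM in diabetes 1 and 16.5 CPM in diabetes 2, a mean of 10.8 ± 8.20 CPM in diabetes (SD, n = 2). Its fitted log2 fold change was 5.55 (SE 1.81). Cd200r1 (ENSMUSG00000022667), an inhibitory receptor of myeloid cells, had 0 counts in control 1 and held 1.69 CPM in diabetes 1 against 25.6 CPM in diabetes 2. Against 3 counts in the control, which is the limit a count of 0 allows and equals 0.111 CPM, this was at least 15.2-fold and at least 230.4-fold higher. Slamf7 (ENSMUSG00000038179), a receptor of natural killer, plasma and myeloid cells, was likewise absent from the control's counts, with 1.45 and 24.6 CPM in diabetes, at least 13.1-fold and at least 222-fold higher. DESeq2 gave Slamf7 an adjusted p of 0.0308 and Cd200r1 an adjusted p of 0.0390, and the other alternatives gave adjusted p-values of 0.267 to 1.00 for Slamf7 and 0.339 to 1.00 for Cd200r1. In each of these genes diabetes 2 was the higher of the diabetic libraries.

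Ear2, Il1rn, C6, Cxcl9, Casp4 and Spp1, genes of inflammation and host defence, had the same order of libraries. Ear2 (ENSMUSG00000072596), a ribonuclease of eosinophils and some macrophages, had 0 counts in control 1 and reached 1.34 CPM in diabetes 1, with 42.8 CPM in diabetes 2. Il1rn (ENSMUSG00000026981), the secreted antagonist of the interleukin-1 receptor, was at 0, 0.629 and 38.9 CPM. C6 (ENSMUSG00000022181), a component of the complement membrane attack complex, was at 0, 0.589 and 44.2 CPM. Diabetes 1 held 34, 16 and 15 counts of these genes, and nearly all of the diabetic signal was in diabetes 2. Cxcl9 (ENSMUSG00000029417), a chemokine induced by interferon gamma, was at 0.222, 0.904 and 25.8 CPM, that is 4.07-fold and 116-fold above the control. Casp4 (ENSMUSG00000033538), an inflammatory caspase that senses bacterial lipopolysaccharide, was at 0.777, 3.38 and 15.4 CPM. Spp1 (ENSMUSG00000029304), osteopontin, a secreted protein of macrophages in obese fat, was at 1.04, 4.99 and 32.2 CPM. Both diabetic libraries lay above the control for all of these, by 4.35-fold and 19.8-fold for Casp4 and by 4.82-fold and 31.1-fold for Spp1. The genes were chosen for that side, and the lists of their families did not all follow. Of 23 interferon-stimulated genes 2 were above in both (8.70%) and 6 below (26.1%). Of 21 complement genes 2 were above (9.52%), 0 below and 19 split. NF-kappaB and inflammatory cytokine genes had 7 of 20 above (35.0%) and 3 below, chemokines and receptors 5 of 16 (31.2%) and 3. Of 17 lipid-associated macrophage genes, the list that holds Spp1, 4 were above (23.5%), 2 below (11.8%) and 11 split. That list took 0.278% of the counts of control 1, 0.192% of diabetes 1 and 2.66% of diabetes 2. Over all genes the shares were 21.3% above and 34.0% below. Gimap3 (ENSMUSG00000039264), a GTPase of lymphocyte survival, was at 1.11, 5.93 and 14.4 CPM. Ear2, Gimap3 and Cd59b (ENSMUSG00000068686, an inhibitor of complement, at 1.44, 6.01 and 12.8 CPM) have close copies in the mouse genome with which they may share reads.

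The whole macrophage list went only partly with these genes. Of its 20 genes 18 were above the expression floor. Both diabetic libraries lay above the control for 6 of these (33.3%, beside 21.3% over all genes). For 0 both lay below (beside 34.0%), and 12 were split. Those above were Cd14, the co-receptor for lipopolysaccharide, at 3.85 CPM in control 1 against 7.19 and 41.3 CPM, the chemokine receptor Ccr2 at 1.22 against 2.63 and 64.1 CPM, Mertk, a receptor for the uptake of dying cells, at 32.2 against 46.4 and 62.7 CPM, and Lyz2, Ms4a7 and Cd209f. Among the split members were Adgre1 at 7.03, 6.52 and 230.2 CPM and Csf1r, the receptor of macrophage growth factor, at 33.2, 27.0 and 271 CPM. The list as a whole took 0.0268% of the counts of control 1, 0.0229% of diabetes 1 and 0.318% of diabetes 2. The summed macrophage share was therefore not higher in diabetes 1 than in the control, although Ptpn7, Cd200r1, Spp1 and the other genes named above were. The part of macrophage content in the values of diabetes 2 was not tested. Class II antigen presentation genes had 5 of 13 above in both libraries (38.5%, beside 21.3% over all genes) and 2 below (15.4%, beside 34.0%). H2-Ab1 was at 39.8, 64.0 and 475 CPM, and Cd83, a marker of mature dendritic cells, at 0.555, 4.28 and 38.8 CPM. The dendritic cell list, which does not hold Cd83, had 1 of 7 genes above in both libraries (14.3%), 1 below and 5 split. It took 0.00932% of the counts of control 1, 0.00557% of diabetes 1 and 0.0289% of diabetes 2.

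**Figure D2:**
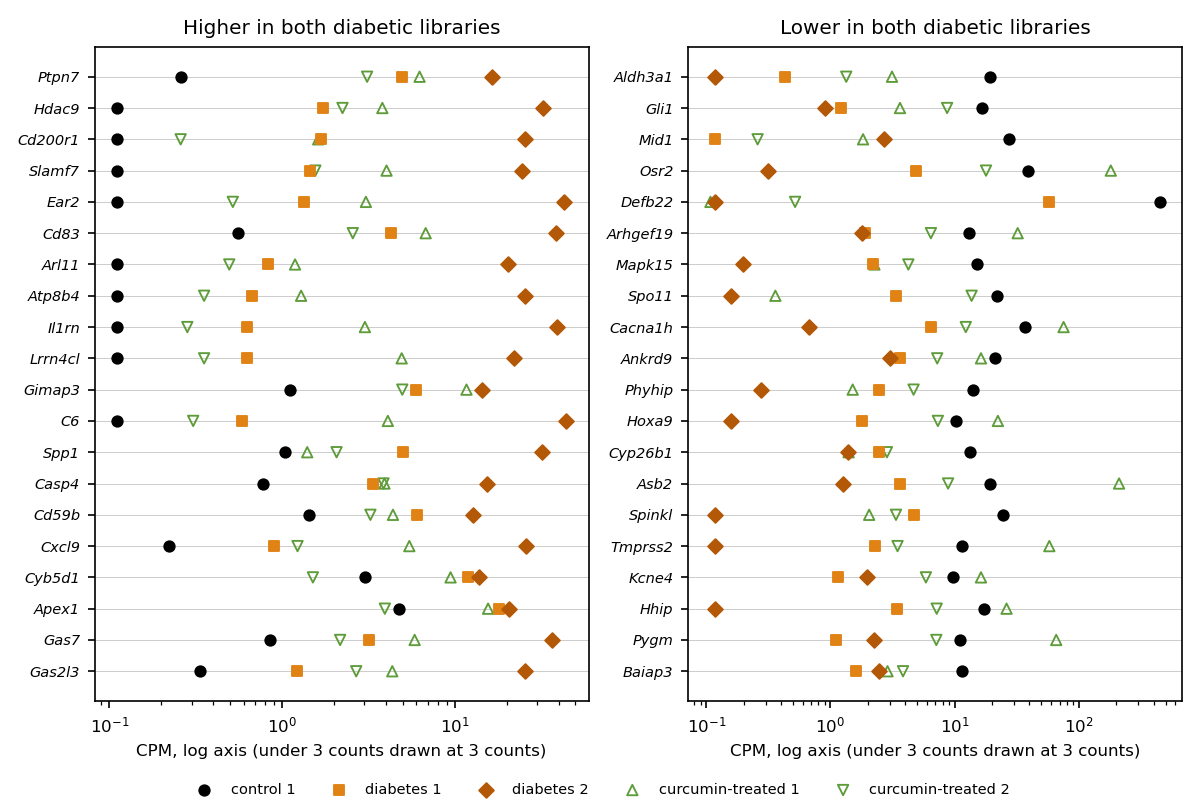
CPM on a log axis in each of the 5 libraries for the 20 genes with the largest smaller-of-2 ratio on the higher side (left) and on the lower side (right), with values under 3 counts drawn at 3 counts. Filled symbols are the control and the diabetic libraries and open triangles the curcumin-treated ones. On the left the control is the lowest of the 3 filled symbols in every row, and on the right it is the highest, by the way the genes were chosen.

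Apex1 and Cyb5d1 were higher genes with close diabetic values. Apex1 (ENSMUSG00000035960), the main endonuclease of base excision DNA repair, was at 4.77 CPM in control 1, 18.1 CPM in diabetes 1 and 20.5 CPM in diabetes 2, a mean of 19.3 ± 1.71 CPM (SD, n = 2). The diabetic libraries were 3.79-fold and 4.30-fold above the control, and the fitted log2 fold change was 2.17 (SE 1.18). Cyb5d1 (ENSMUSG00000044795), which encodes a protein with a cytochrome b5 domain, was at 3.03, 11.9 and 13.9 CPM. Their diabetic libraries differed from each other far less than from the control. Curcumin-treated 1 and 2 lay at 15.6 and 3.94 CPM for Apex1 and at 9.46 and 1.51 CPM for Cyb5d1, so that curcumin-treated 2 was below the control for both genes. Hdac9 (ENSMUSG00000004698), a class IIa histone deacetylase that restrains adipocyte differentiation, had 2 counts in control 1 and was at 1.73 and 32.5 CPM in diabetes. Gas7, a regulator of the cytoskeleton, was at 0.851, 3.18 and 36.5 CPM. The proliferation list had 7 of 17 genes above the control in both libraries (41.2%, beside 21.3% over all genes) and 1 below. It took 0.0191% of the counts of control 1, 0.0169% of diabetes 1 and 0.0456% of diabetes 2. The list's median log2 ratio was −0.03 in diabetes 1 and 1.47 in diabetes 2. Its widest member was Top2a, the topoisomerase of dividing cells, at 2.74, 5.82 and 30.4 CPM, and Mki67 was at 5.96, 8.53 and 43.7 CPM.

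Asns and Chac1, known from the response to amino acid shortage, had diabetic libraries close to each other. Cells that lack amino acids, or that are under stress of the endoplasmic reticulum, translate the transcription factor ATF4, which binds amino acid response elements in the promoters of its targets. Asns, asparagine synthetase, was at 17.8 CPM in control 1, 31.8 CPM in diabetes 1 and 33.1 CPM in diabetes 2, or 1.79-fold and 1.86-fold above the control. Chac1, which breaks down glutathione, was at 3.48, 6.80 and 8.47 CPM. Atf3, a stress-induced transcription factor, was at 2.81, 9.43 and 102 CPM. In all 3 the control was the lowest of the 3 libraries, and in Asns and Chac1 the diabetic libraries differed from each other by less than from the control. The mRNA of Atf4 itself was on the other side, at 246 CPM in control 1 against 139 and 109 CPM. Of other ATF4 targets, Ddit3 was at 24.0, 23.5 and 33.2 CPM and Trib3 at 1.85, 1.06 and 8.31 CPM, so that diabetes 1 was below the control for both. The promoters of Asns, Chac1 and Atf3 are shown because each holds 1 match to TGATGNAA, a short form of the amino acid response element, searched on both strands. They run from 250 bases before to 50 after the start of the gene in the RefSeq promoter table (GRCm38.p6) and are written on the gene's own strand with the match in capitals. In Chac1 and Atf3 the match lies on the opposite strand, so the capitals show its reverse complement. Asns lies at chr6:7693160-7693459 on the minus strand, Chac1 at chr2:119350992-119351291 on the plus strand and Atf3 at chr1:191183284-191183583 on the minus strand. The match begins 23 bases before the start in Asns, 193 bases before it in Chac1 and 110 bases before it in Atf3. Among 32851 RefSeq promoters, 1304 (3.97%) hold such a match, so it is a description of these promoters and not evidence of binding.
Asns: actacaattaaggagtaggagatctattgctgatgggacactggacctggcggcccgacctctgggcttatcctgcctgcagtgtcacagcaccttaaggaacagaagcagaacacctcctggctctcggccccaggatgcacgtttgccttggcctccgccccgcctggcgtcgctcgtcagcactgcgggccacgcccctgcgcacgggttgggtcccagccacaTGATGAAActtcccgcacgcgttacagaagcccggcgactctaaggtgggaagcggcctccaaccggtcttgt
Chac1: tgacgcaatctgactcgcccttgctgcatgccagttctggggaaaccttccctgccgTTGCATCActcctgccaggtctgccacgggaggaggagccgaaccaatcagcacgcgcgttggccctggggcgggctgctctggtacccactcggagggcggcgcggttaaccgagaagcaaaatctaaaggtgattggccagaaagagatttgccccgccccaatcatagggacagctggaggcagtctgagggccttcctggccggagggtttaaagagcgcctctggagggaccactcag
Atf3: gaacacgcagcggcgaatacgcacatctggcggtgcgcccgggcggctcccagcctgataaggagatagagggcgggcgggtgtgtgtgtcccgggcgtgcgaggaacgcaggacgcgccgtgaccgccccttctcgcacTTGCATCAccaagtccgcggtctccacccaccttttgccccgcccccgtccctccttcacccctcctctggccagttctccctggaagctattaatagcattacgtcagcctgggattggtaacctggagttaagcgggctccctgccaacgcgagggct

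Cytosolic heat shock genes also lay mostly above the control. These encode chaperones that fold new and damaged proteins in the cytosol, and their master regulator is HSF1. Of 18 genes 10 (55.6%) were above the control in both diabetic libraries and 4 below (22.2%), beside 21.3% and 34.0% over all genes. The list's counts were the same with TMM and with DESeq2 size factors. Over the 13038 genes those scalings gave 3487 above and 3637 below, and 3627 and 3511. Hspa8, the constitutive HSP70, was at 209.9 CPM in control 1, 425 CPM in diabetes 1 and 514 CPM in diabetes 2, a mean of 469.6 ± 63.2 CPM (SD, n = 2). Hsph1, an HSP110 that recharges HSP70, was at 18.8, 39.4 and 65.8 CPM, Hspa4l, a relative of Hsph1, at 14.7, 23.8 and 25.1 CPM, and Hsp90aa1, the inducible HSP90, at 95.8, 134 and 179 CPM. These were 2.02-fold and 2.45-fold above the control for Hspa8 and 2.10-fold and 3.51-fold for Hsph1, the 2 members of the list that passed 2-fold in both. The 4 genes on the lower side were Hsf1 itself, at 52.8, 30.7 and 22.8 CPM, the HSP70 partner Bag3, at 108, 71.7 and 48.1 CPM, and the co-chaperones Dnaja1 and Dnajb1. The inducible HSP70 gene Hspa1a, which has a near-identical copy in Hspa1b, was split, at 28.5, 32.8 and 4.33 CPM. A heat shock element (GAA, TTC and GAA in a row, each separated by any 2 bases, searched on both strands) occurs in the promoter of Hsph1 (chr5:149636287-149636586, minus strand, GRCm38.p6 in the RefSeq table), 36 bases after the start, and is shown in capitals because Hsph1 had the wider of these differences. The table lists a second promoter of this gene, in which the same match lies 15 bases after the start. That form is found in 198 of the 32851 promoters (0.603%), and was not found in that of Hspa4l.
Hsph1: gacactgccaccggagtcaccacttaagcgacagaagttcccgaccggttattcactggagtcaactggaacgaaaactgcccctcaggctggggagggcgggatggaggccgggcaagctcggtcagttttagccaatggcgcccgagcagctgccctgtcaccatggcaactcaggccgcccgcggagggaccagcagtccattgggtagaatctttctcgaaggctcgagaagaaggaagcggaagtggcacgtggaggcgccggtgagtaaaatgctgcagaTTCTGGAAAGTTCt

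Genes of the unfolded protein response behaved differently. The list holds chaperones of the endoplasmic reticulum, whose levels are high in secretory cells, and also Asns, Chac1 and Atf4. Of 21 genes 17 were split (81.0%, beside 44.7% over all genes), with diabetes 1 above and diabetes 2 below the control in most. Asns and Chac1 were among the 3 above in both, and Atf4 was the 1 below. Most chaperones shown here were split. Hspa5, the main chaperone of the endoplasmic reticulum, was at 1278 CPM in control 1, 2032 CPM in diabetes 1 and 657 CPM in diabetes 2. Hsp90b1 was at 843, 1285 and 332 CPM and Creld2 at 149.9, 205 and 23.8 CPM. The list took 0.827% of the counts of control 1, 1.18% of diabetes 1 and 0.348% of diabetes 2. The epididymal share was 9.70%, 9.38% and 0.00372% in the same libraries, and its part in this split was not tested.

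**Figure D3:**
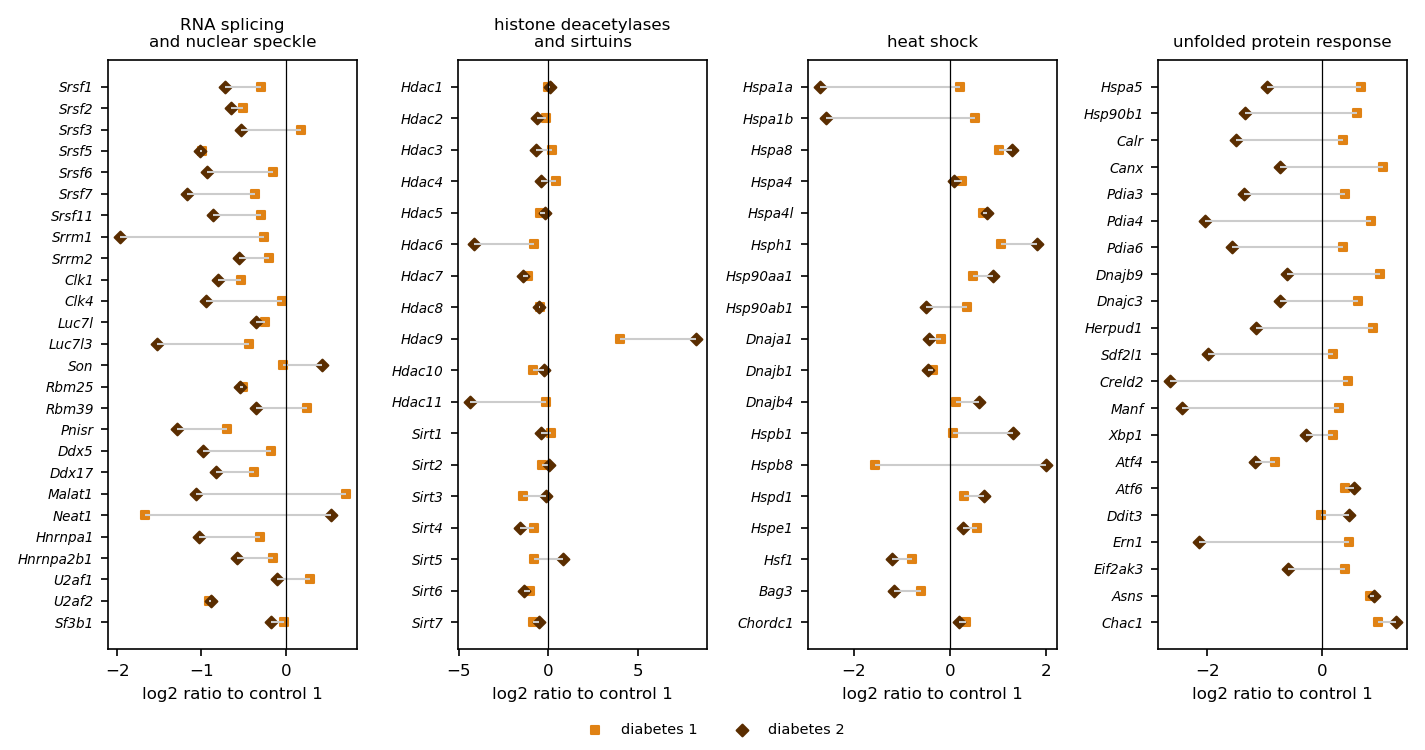
Log2 ratio of CPM to control 1 for each gene of 4 lists that lies above the expression floor, with diabetes 1 as light squares and diabetes 2 as dark diamonds. In both libraries 20 of 26 splicing genes and 11 of 18 deacetylase and sirtuin genes lie left of the line at 0, 10 of 18 heat shock genes lie right of it, and most unfolded protein response genes have the 2 libraries on opposite sides.

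Genes of the tricarboxylic acid cycle and of fatty acid oxidation lay above the control in both diabetic libraries or were split. For the tricarboxylic acid cycle 10 of 22 genes (45.5%) were above in both and 0 below, with TMM 11 and 0. Dld, a subunit shared by several dehydrogenases, was at 47.2 CPM in control 1, 67.7 CPM in diabetes 1 and 194 CPM in diabetes 2, Fh1, fumarase, at 46.8, 67.0 and 122 CPM, and Sdha, a subunit of succinate dehydrogenase, at 183, 258 and 369 CPM. For fatty acid oxidation 12 of 24 genes (50.0%) were above in both and 0 below. Acaa2, a thiolase of the last step of beta oxidation, was at 81.4, 145 and 260.1 CPM, Acadl, the long-chain acyl-CoA dehydrogenase, at 36.3, 55.7 and 321 CPM, and Cpt1a, the gate for entry of fatty acids into mitochondria, at 129.8, 179.8 and 168 CPM. Among the 12 genes diabetes 1 was at most 1.78-fold above the control. The lists' median log2 ratio in diabetes 1 was −0.02 for the cycle and 0.01 for fatty acid oxidation, beside −0.11 over all genes, while in diabetes 2 it was 0.98 and 1.82, beside −0.13. The adipocyte share of diabetes 2, 5.89%, moved with the latter values, and its part in them was not tested. Subunits of oxidative phosphorylation encoded in the nucleus had 11 of 38 genes above (28.9%) and 5 below (13.2%). Those encoded in mitochondrial DNA had 2 of 13 above (15.4%) and 6 below (46.2%). Over all genes the shares were 21.3% above and 34.0% below.

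Glycolysis had 8 of 19 genes above in both libraries (42.1%, beside 21.3% over all genes) and 4 below (21.1%, beside 34.0%). Pkm, pyruvate kinase, was at 177, 267 and 299 CPM, and Ldha, which makes lactate, at 66.1, 95.4 and 585 CPM. The hexokinases Hk1 and Hk2 were on the lower side, Hk1 at 65.2, 45.3 and 29.0 CPM. Insulin signalling had 11 of 29 genes above (37.9%) and 6 below (20.7%), beside the same 21.3% and 34.0% over all genes. No gene of that list was at 2-fold or more in both libraries. Pik3ca, the catalytic subunit of phosphoinositide 3-kinase, was at 52.9, 78.7 and 74.8 CPM. Tsc1, an inhibitor of mTOR complex 1, was at 86.3, 52.7 and 38.0 CPM. The insulin receptor Insr was split, at 78.6, 64.6 and 98.5 CPM, as was the insulin-responsive transporter Slc2a4, at 15.5, 4.71 and 86.3 CPM. Both directions occurred within the pathway.

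Protein breakdown genes lay more often above than below. For the proteasome and ubiquitin list 15 of 30 genes (50.0%) were above in both libraries and 3 below, and with TMM 19 and 0. The proteasome cap subunit Psmd1 was at 68.7, 93.2 and 141 CPM and Psmd2 at 123, 152 and 256 CPM. No member reached 2-fold in both libraries. The autophagy and lysosome list had 12 of 29 genes above (41.4%, beside 21.3%) and 5 below (17.2%, beside 34.0%). Atg7, an enzyme of autophagosome formation, was at 40.5, 51.8 and 78.2 CPM and the lysosomal protease Ctsb at 413, 499 and 4915 CPM.

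**Figure D4:**
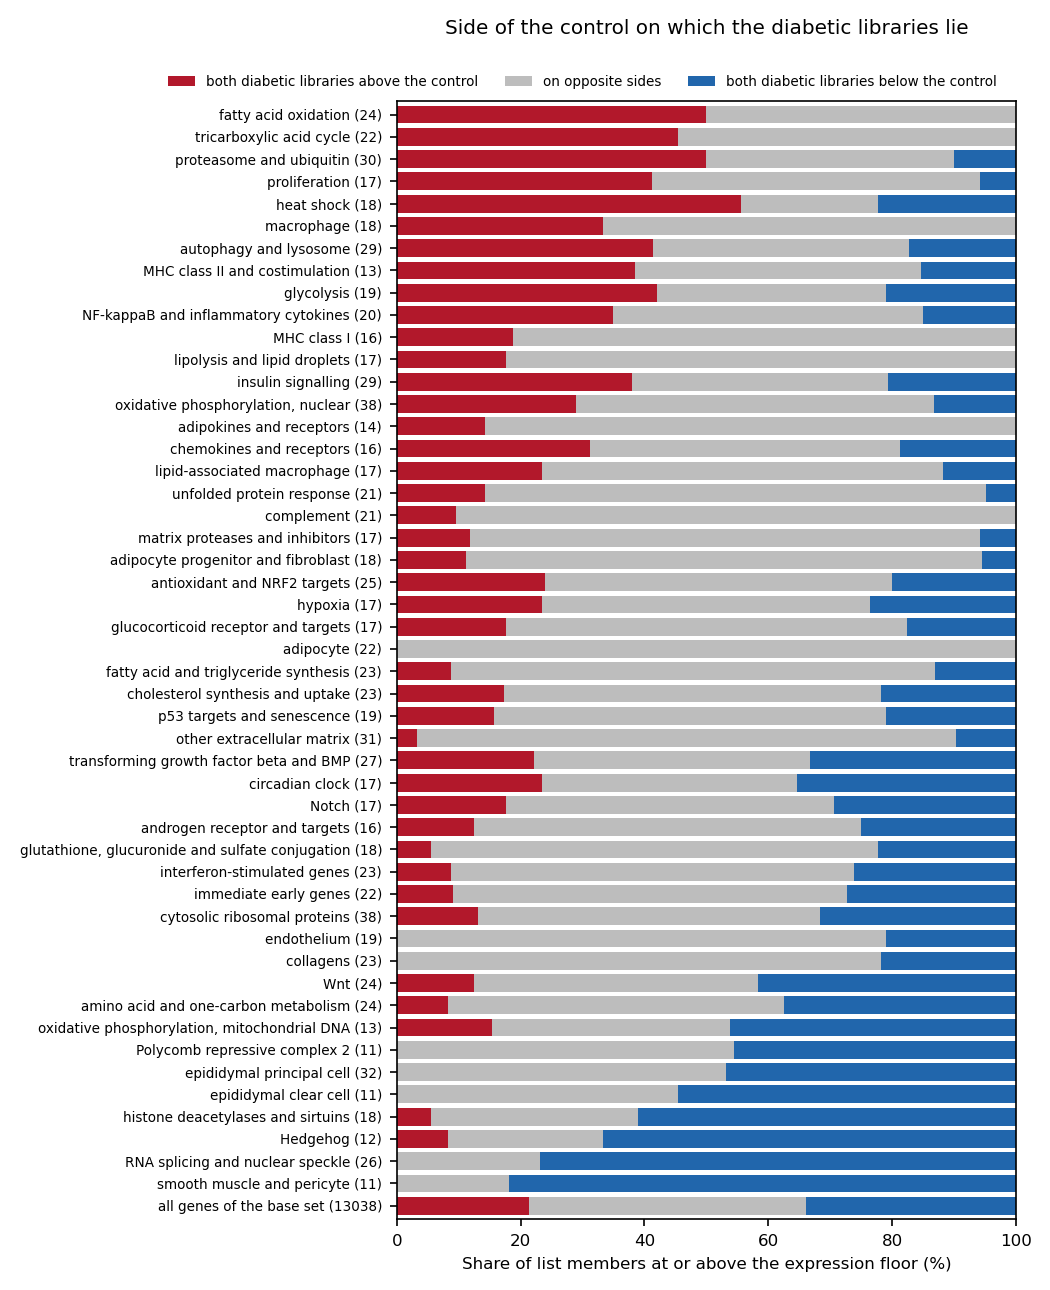
For each list with at least 11 genes above the expression floor (their number in brackets), share of those genes for which both diabetic libraries lay above the control (red), below it (blue) or neither (grey), with all 13038 genes in the lowest bar at 21.3% red and 34.0% blue. Lists are ordered by the difference of the shares, from fatty acid oxidation at 50.0% red to smooth muscle and pericyte at 81.8% blue.

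On the lower side, Aldh3a1 (ENSMUSG00000019102), an aldehyde dehydrogenase that clears products of lipid peroxidation, had the smallest unadjusted p among the 13038 genes in edgeR's quasi-likelihood test, a model fitted across all genes, at 0.00966 (adjusted p = 1.00). It was at 19.2 CPM in control 1, 0.432 CPM in diabetes 1 and 0.0788 CPM in diabetes 2, where it had 2 counts, a mean of 0.256 ± 0.250 CPM (SD, n = 2). Its fitted log2 fold change was −6.12 (SE 1.58). DESeq2 gave it an adjusted p of 0.0319 and the other alternatives adjusted p-values of 0.563 to 1.00. Curcumin-treated 1 and 2 held 3.13 and 1.34 CPM, also below the control. Mid1 (ENSMUSG00000035299), a microtubule-bound ubiquitin ligase, stood at 27.2 CPM in control 1, 0.118 CPM in diabetes 1 and 2.72 CPM in diabetes 2, and at 1.83 and 0.259 CPM in the curcumin-treated libraries. For both genes the control was the highest of the 5 libraries. Gm47283 (ENSMUSG00000096768), a gene model without a known function, was at 79.7, 14.7 and 12.1 CPM, with 40.6 and 89.5 CPM in the curcumin-treated libraries.

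Osr2, Hoxa9 and Cyp26b1, regulators of development, were also among the lower genes with the widest distance. Osr2 (ENSMUSG00000022330), a transcription factor of urogenital and limb development, was at 38.8, 4.91 and 0.315 CPM. Hoxa9 (ENSMUSG00000038227), a homeobox gene of posterior identity, was at 10.2, 1.81 and 0.158 CPM. Cyp26b1 (ENSMUSG00000063415), which degrades retinoic acid, was at 13.3, 2.48 and 1.38 CPM. For Osr2 and Hoxa9 curcumin-treated 1, which took 4.84% of its counts from smooth muscle and pericyte genes, was above the control, at 181 and 22.3 CPM. Defb22 and Spo11 are known from the epididymis and from germ cells. Defb22 (ENSMUSG00000027468), a defensin that coats sperm in the epididymis, was at 447 CPM in control 1, 57.2 CPM in diabetes 1 and 0 in diabetes 2, 7.81-fold and at least 3777-fold lower. Spo11 (ENSMUSG00000005883), the enzyme of meiotic DNA breaks, was at 21.8, 3.38 and 0.158 CPM. Principal cell genes of the epididymis took 9.38% of the counts of diabetes 1 and 0.00372% of diabetes 2, and their part in these values was not tested. Curcumin-treated 2, where they took 13.8%, held 0.519 CPM of Defb22. Defensins form a family whose members may share reads.

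Hedgehog genes had 8 of 12 members above the floor on the lower side in both libraries (66.7%, beside 34.0% over all genes). Smo was the 1 member on the higher side (8.33%, beside 21.3%). Hedgehog ligands relieve the block that the receptor PTCH1 puts on SMO, which lets GLI factors act, and Gli1, Ptch1 and Hhip are themselves induced by the pathway. Gli1 (ENSMUSG00000025407) was at 16.5 CPM in control 1, 1.22 CPM in diabetes 1 and 0.906 CPM in diabetes 2, and the decoy receptor Hhip (ENSMUSG00000064325) at 17.1, 3.46 and 0.0394 CPM, the last a single count. Ptch1 differed little, at 36.6, 35.0 and 28.1 CPM. The ligand Shh was at 25.3 and 22.6 CPM in control 1 and diabetes 1 and had 0 counts in diabetes 2. Of the inhibitors and co-receptors, Sufu was at 43.4, 27.0 and 27.1 CPM and Gas1 at 35.6, 15.8 and 28.7 CPM. The list's count below was the same with TMM and with DESeq2 size factors, where 3637 and 3511 of the 13038 genes were below. Among target genes, only Gli1 and Hhip passed 2-fold in both libraries. A GLI binding site of the form GACCACCCA, searched on both strands, was not found in the promoters of Hhip or Ptch1, and is present in 0.253% of all promoters in the RefSeq table.

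In the transforming growth factor beta, Wnt and Notch lists the shares on either side are to be read beside 34.0% below and 21.3% above over all genes. Of 27 genes of transforming growth factor beta and BMP signalling 9 were below in both libraries (33.3%) and 6 above, close to the shares over all genes. The ligands Bmp7, at 64.1, 24.4 and 1.18 CPM, Bmp4, at 13.4, 6.25 and 4.18 CPM, and Inhba, a subunit of activin, at 11.5, 3.46 and 1.18 CPM, were each at least 2-fold lower. Ltbp4, which stores the latent growth factor in matrix, was at 224, 60.0 and 105 CPM. Bmp3, an antagonist ligand, was the exception on the higher side, with 0 counts in control 1 and 0.393 and 95.1 CPM in diabetes. Of 24 Wnt genes 10 were below (41.7%) and 3 above (12.5%), with the ligand Wnt6 at 19.3, 6.64 and 0.394 CPM, and the receptor gene Fzd2 at 9.81, 1.06 and 9.22 CPM. Of 17 Notch genes 5 were below (29.4%) and 3 above (17.6%), neither share larger than over all genes, and the members past 2-fold were the ligands Jag2, at 78.9, 25.7 and 11.2 CPM, and Dll1, at 15.2, 4.95 and 3.43 CPM. The receptor genes Notch2, at 54.0, 67.1 and 56.0 CPM, and Bmpr2, at 73.2, 76.6 and 90.0 CPM, were above the control in both.

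Among lists with at least 11 genes above the floor, smooth muscle and pericyte genes had the largest share on the lower side. It was 9 of 11 (81.8%, beside 34.0% over all genes). Of these 9 genes 6 were at least 2-fold lower in both libraries, which 3.22% of all genes were. Acta2, smooth muscle actin, was at 561 CPM in control 1, 196 CPM in diabetes 1 and 234 CPM in diabetes 2, a mean of 215 ± 26.8 CPM (SD, n = 2). Des, desmin, was at 103, 36.0 and 37.9 CPM, Myh11, the smooth muscle myosin heavy chain, at 318, 117 and 37.4 CPM, and Kcnj8, a potassium channel of pericytes, at 7.77, 1.34 and 4.02 CPM. The diabetic libraries agreed closely for Acta2 and Des and lay apart for Myh11. For Actg2, the gamma actin of visceral smooth muscle, diabetes 2 was at 0.315 CPM, against 1363 CPM in control 1 and 1035 CPM in diabetes 1. The list's share of counts was 0.279%, 0.157% and 0.0508%, and 4.84% in curcumin-treated 1. Endothelial genes were split in 15 of 19 cases (78.9%, beside 44.7% over all genes), and all 19 were below the control in diabetes 1. Pecam1, a junction protein of endothelium, was at 35.0, 8.96 and 105 CPM. Plvap, a protein of endothelial fenestrae, was below in both, at 39.0, 5.23 and 36.0 CPM. In diabetes 1, 10 of 11 smooth muscle genes and 19 of 19 endothelial genes were thus below the control.

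RNA splicing genes were below the control in both libraries for 20 of 26 (76.9%) and above for 0, beside 34.0% and 21.3% over all genes. With TMM and with DESeq2 size factors the counts were 18 below and 3 above. The median log2 ratio of the list was −0.27 in diabetes 1 and −0.82 in diabetes 2, beside −0.11 and −0.13. Srsf5, a serine- and arginine-rich splicing factor, was at 435 CPM in control 1, 219 CPM in diabetes 1 and 215 CPM in diabetes 2. U2af2, which recognises the tract before the 3′ splice site, was at 173, 92.0 and 93.2 CPM, and Pnisr, a protein of nuclear speckles, at 213, 131 and 86.8 CPM. For Srsf5 and U2af2 the diabetic libraries were nearly equal and both well below the control. The kinase Clk1, which phosphorylates these factors, was at 225, 155 and 129 CPM. No gene of the list reached 2-fold in both libraries, Srsf5 coming closest at 1.99-fold and 2.02-fold. The long noncoding RNAs of speckles and paraspeckles were split in opposite ways, Malat1 at 729, 1189 and 348 CPM and Neat1 at 766, 241 and 1104 CPM. The list's median GC content was 43.5%, against 49.8% over all genes and 55.4% over the 420 lower genes.

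Histone deacetylases and sirtuins remove acetyl groups from histones and other proteins. Of 18 genes 11 were below (61.1%, beside 34.0% over all genes) and 1, Hdac9, above (5.56%, beside 21.3%). With TMM the count below was 9 and with DESeq2 size factors 8, beside 3637 and 3511 of the 13038 genes. Hdac7, of class IIa like Hdac9, was at 115, 52.5 and 43.2 CPM, and Sirt6, a nuclear sirtuin of DNA repair and glucose metabolism, at 30.0, 14.9 and 11.5 CPM. Both were at least 2-fold lower in each diabetic library. Sirt4 and Sirt3, of mitochondria, were at 33.6, 19.3 and 11.4 CPM and at 10.7, 4.01 and 9.69 CPM. The class I gene Hdac2 was at 69.3, 62.4 and 44.4 CPM, and Sirt1, the founding mammalian sirtuin, was split. Of 11 genes of Polycomb repressive complex 2, which methylates histone H3, 5 were below (45.5%, beside 34.0% over all genes) and 0 above. They were the accessory factors Phf1, at 72.3, 17.4 and 14.1 CPM, Phf19, at 27.6, 12.5 and 2.52 CPM, and Mtf2, at 34.8, 20.0 and 17.0 CPM, together with Jarid2 and the core subunit Suz12. The core subunits Eed, at 19.2, 16.0 and 25.7 CPM, and Ezh2, the methyltransferase, at 6.73, 5.03 and 13.2 CPM, were split. Phf1, Phf19 and Mtf2 thus lay further below the control than the core subunits did.

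Collagens were split in 18 of 23 genes (78.3%, beside 44.7% over all genes), with diabetes 1 below and diabetes 2 above. Col3a1, a fibrillar collagen, was at 86.2, 18.8 and 1512 CPM. The 5 that were below in both were Col7a1, of anchoring fibrils, at 62.6, 24.2 and 1.14 CPM, the basement membrane chains Col4a3, at 16.8, 7.03 and 0.827 CPM, and Col4a5, at 21.4, 4.64 and 17.7 CPM, and Col8a2 and Col27a1. Of 38 cytosolic ribosomal protein genes 12 were below (31.6%) and 5 above, which turned to 5 and 7 with TMM, so that neither side can be given. Amino acid and one-carbon metabolism had 9 of 24 genes below (37.5%, near the 34.0% over all genes) and 2 above, with TMM 6 and 4. Cbs, the enzyme that makes cystathionine from homocysteine, was at 22.1, 12.0 and 7.17 CPM, and Psat1 of serine synthesis was above, at 110.4, 133 and 267 CPM. Of 17 clock genes 6 were below (35.3%) and 4 above (23.5%), close to the 34.0% and 21.3% over all genes. Dbp, an output factor of the clock, was at 32.2, 6.37 and 18.2 CPM, and Hlf, of the same family, at 51.5, 37.8 and 5.04 CPM, while the core factor Arntl was at 13.0, 9.15 and 8.51 CPM. The hour at which tissue was taken is not given in the labels.

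The adipocyte genes themselves gave no gene on the same side. All 22 above the floor had diabetes 1 below and diabetes 2 above the control. Pparg, the master factor of adipocyte differentiation, was at 1.74 CPM in control 1, 0 in diabetes 1 and 114 CPM in diabetes 2, and Lpl, lipoprotein lipase, at 113, 53.1 and 14802 CPM. The median log2 ratio of the list was −2.12 in diabetes 1 and 5.87 in diabetes 2. For genes of the adipocyte a difference between diabetes and the control therefore had a sign that depended on the library.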

How the data were processed

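Per the labels' protocols, poly-A RNA was read from strand-marked libraries. The authors deposited raw whole-number counts, with no normalisation, for 78334 Ensembl genes in 5 libraries. FastQC, featureCounts and build GRCm39 appear in the submitters' processing notes. Which aligner, annotation and strand option served is not given in the sources used here, so genes that overlap on opposite strands may share reads. A symbol was found through the gene ID for 51486 genes (65.7%).

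From these counts CPM by library total were computed, with counts under 3 set to 3 before a ratio. Where a gene had 0 counts the limit was 3 counts, equal to 0.111 CPM in control 1 and 0.118 CPM in each diabetic library, for counting error only. Genes entered at an average of at least 5 CPM between control and diabetes. EdgeR 4.0.16 in R 4.3.3 (filterByExpr, TMM, robust quasi-likelihood test, two-sided, Benjamini-Hochberg adjustment, threshold 0.05) was fitted on all 5 libraries, with 2 residual degrees of freedom and a biological coefficient of variation of 1.07. The spread of the lone control was taken from the other groups. The test was checked on simulated counts. DESeq2 1.42.0 and limma 3.58.1 were alternatives, beside other scalings, filters, folds, a replicate block and leaving out libraries.

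Named genes were, per direction, the 20 with the largest smaller-of-2 ratio among those at least 2-fold on the same side, up to 3 members per list at 1.5-fold or more, and the 5 smallest p (116 genes), beside the markers of the tissue check. Further list members were named with their values known. The 61 lists (41 pathways, 13 cell types, 7 other tissues) and the members were chosen with earlier results of these data known. No set test was run. Promoters came from a RefSeq table on GRCm38.p6, which is not the build of the counts, and GC content from GRCm38 transcripts (known for 97.7% of the 13038 genes).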

Additional observations from a re-analysis of the deposited data

How the results depend on the processing

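Leaving out 1 of 2 diabetic libraries gave from 279 (without diabetes 2) to 2655 (without diabetes 1) genes at least 2-fold higher and from 1412 to 3325 lower, against 128 and 420 with both. At an expression floor of 1 CPM there were 396 higher and 1218 lower genes, and at 20 CPM 28 and 156. At 1.5-fold there were 465 (3.57%) and 1245 (9.55%), and at 4-fold 17 and 43. Requiring the diabetic libraries to lie within 1.5-fold of each other, which was chosen after seeing the data, left 41 and 127. Other scalings and removal of other-tissue genes gave 125 to 178 higher and 324 to 517 lower genes.

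EdgeR called 0 genes under every alternative except without a low-count filter, where it called 2 (Ear2 and C6). DESeq2 called 56. With the replicate number as a block edgeR called 0 (35 at an unadjusted p under 0.05), and the fitted log2 fold change turned to 0.11 for Lmod1 and 0.14 for Myh11. The diabetic and control groups share only number 1, and no label says that a number marks a shared animal or day, so this is no paired design. Of 1719 fitted values of named genes under alternatives 1710 kept their direction and side of the threshold, 2 were reversed and 7 passed the threshold. The causes were not tested.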

Other observations

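The genes whose diabetic libraries lay within 1.5-fold of each other, a choice made after the data were seen, were 41 of the 128 higher genes and 127 of the 420 lower ones. Among the higher was Cltc, the clathrin heavy chain of vesicle coats, at 174 CPM in control 1, 402 CPM in diabetes 1 and 418 CPM in diabetes 2. Nup133, of the nuclear pore, was at 7.66, 19.4 and 21.0 CPM, and Prim2, a subunit of DNA primase, at 2.85, 9.35 and 12.1 CPM. Zyg11b, a substrate receptor of a ubiquitin ligase, was at 27.0, 64.2 and 73.1 CPM. In each the diabetic values were near each other and the control stood apart below them.

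Leng8, Pabpn1, Clk2, Cbx7 and Smarcd1 were among the lower genes of this kind. Leng8 was at 541, 181 and 199.7 CPM, the nuclear poly-A binding protein gene Pabpn1 at 124, 37.6 and 41.1 CPM, and Clk2, a kinase of splicing factors, at 72.1, 26.6 and 25.8 CPM. Cbx7, a chromobox protein of Polycomb repressive complex 1, was at 73.4, 23.3 and 20.7 CPM, and Smarcd1, a subunit of the SWI/SNF remodelling complex, at 36.9, 14.9 and 12.5 CPM. Scand1 was at 222, 64.5 and 59.2 CPM, and Lama5, a laminin chain of basement membranes, at 116, 43.2 and 41.1 CPM. The median GC content of the transcripts was 56.3% for these lower genes and 46.4% for the higher ones, beside 49.8% over all genes, and the part of GC content in these differences was not tested. In curcumin-treated 1 and 2, Phf1 was at 68.5 and 80.9 CPM, near the control's 72.3 CPM and above the 17.4 and 14.1 CPM of the diabetic libraries. Scand1 was at 227 and 255 CPM there, also near the control. Leng8, Pabpn1, Clk2 and Smarcd1 lay between the control and the diabetic libraries in both, Leng8 at 287 and 336 CPM. Cbx7, at 82.2 and 34.3 CPM, and Lama5, at 181 and 44.2 CPM, were above the control only in curcumin-treated 1. The part of curcumin in these values was not tested.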
